A study of Rattus norvegicus with 60 samples.

Results

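The comparison described here is that of contused rat muscle 8 h after injury with contused muscle 4 h after injury. It holds 15 of the 60 libraries of the deposited count table, 7 from the 4 h group and 8 from the 8 h group, and 16218 of 20662 genes with a total of at least 5 reads over them. The animals were male Sprague-Dawley rats, 6 to 7 weeks old. A weight was dropped onto the right hind limb under chloral hydrate anesthesia, so both groups carry the injury and the anesthetic, and muscle was taken from the wound site with the fascia removed. Each library was made from polyadenylated RNA of a different rat, so the p-values measure the spread between rats of a group. The uninjured control libraries were not used in this comparison.

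Libraries were assigned to groups by the position of their column in the table and not by the column heading, because the headings are shifted against the study's published normalized values. The first 7 count columns were taken as 4 h and the next 8 as 8 h, and libraries are numbered here in column order. For 13 of the 15 columns, 99.7% to 100% of the genes with a read were, to within 0.5 of a read, a single factor times the values of 1 published library (over the 1288 genes of the published table used here), and each of the 13 belonged to the group given by its position. The next best library reached at most 3.43%. Columns 4 h 1 and 8 h 6 matched none of the 49 libraries compared (best 2.56% and 2.16%), so their group rests on position alone, and the numbers of genes called in all are also given over the 13 matched libraries, as are many of the list counts. The study removed samples it held to be abnormal after a principal components analysis. Its numbers of 4 h and 8 h samples kept equal those of the matched columns. Which samples were removed is not stated in the paper's text.

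The column totals ran from 16592128 to 34899966 reads and fell into 2 depth classes, which both groups contain (3 of 7 libraries at 4 h and 3 of 8 at 8 h lay under 25000000 reads). Library 4 h 1 stood apart from its group, with a median Spearman correlation of 0.885 with the other 4 h libraries, where the other 14 libraries reached 0.943 to 0.98 within their groups. With the 8 h libraries its median correlation was 0.887. The other 14 libraries each correlated better within their own group. Both unmatched libraries held far more RNA of lymphocytes than the rest. The summed level of 13 T cell markers was 560 CPM (counts scaled to a common library size with TMM factors) in 4 h 1 and 296 CPM in 8 h 6, against 8.32 to 48.9 CPM in the others. Likewise, 10 B cell markers summed to 466 and 345 CPM in these libraries, against 6.42 to 77.5 CPM elsewhere, and 7 lymph node stroma markers to 708 and 445 CPM, against 66.5 to 154 CPM. The labelled tissue was borne out by its markers, since 6 muscle fiber genes summed to 54300 to 119000 CPM per library. Acta1, the skeletal muscle actin, ranged from 26281 to 58357 CPM at 4 h and from 30489 to 53783 CPM at 8 h, and Ckm, the muscle creatine kinase, from 10612 to 25598 CPM and from 11277 to 18917 CPM. Neither was called changed (log2 fold change -0.17 ± 0.19 SE for Acta1 and -0.26 ± 0.20 for Ckm, edgeR adjusted p = 0.619 and 0.443). Hbb, a globin gene of red cells, ranged from 112 to 681 CPM at 4 h and from 67.3 to 350 CPM at 8 h (adjusted p = 0.284).

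**Figure D1:**
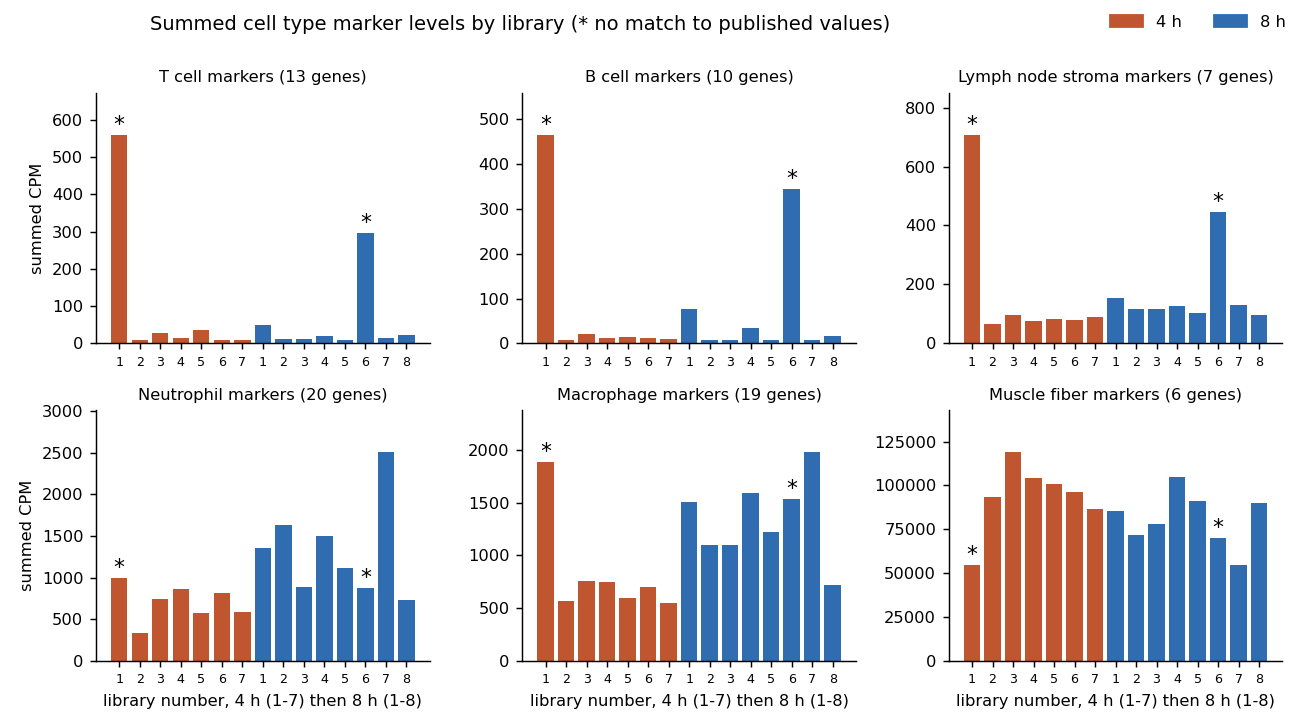
Summed CPM of 6 cell type marker lists (bars) in each of the 7 libraries at 4 h and 8 libraries at 8 h, with the 2 libraries that matched no published values marked by an asterisk. The lymphocyte and lymph node lists are high in 4 h 1 and 8 h 6, while the neutrophil list reaches its highest sum, 2510 CPM, in 8 h 7.

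A crushed muscle passes in its first hours from an acute transcriptional response of surviving cells, led by immediate early genes and chemokines, to the entry of neutrophils and then of monocytes from the blood. Secreted and membrane proteins made in this period are folded in the endoplasmic reticulum (ER), whose chaperones are raised by the unfolded protein response when the folding load increases. Muscle fibers meanwhile alter their fuel use, their neuromuscular genes and the balance of growth and atrophy signals.

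Between 4 and 8 h, 219 genes rose and 375 fell (edgeR quasi-likelihood test, adjusted p under 0.05 and a log2 fold change beyond 1 in size), which is 1.35% and 2.31% of the genes tested, or 594 genes and 3.66% in either direction. By the adjusted p alone, 1137 genes were higher (7.01%) and 1134 lower (6.99%). The groups did not overlap on CPM for 322 genes that were higher at 8 h (1.99%) and 183 that were lower (1.13%). The median log2 fold change of all genes was -0.05. Over the 13 matched libraries 413 genes rose and 427 fell, and 208 and 342 genes were called by both fits. The count without library 4 h 1 alone was 467 higher and 456 lower. With scaling by total counts only, 250 rose and 245 fell, so that the share of higher among called genes went from 36.9% to 50.5%.

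**Figure D2:**
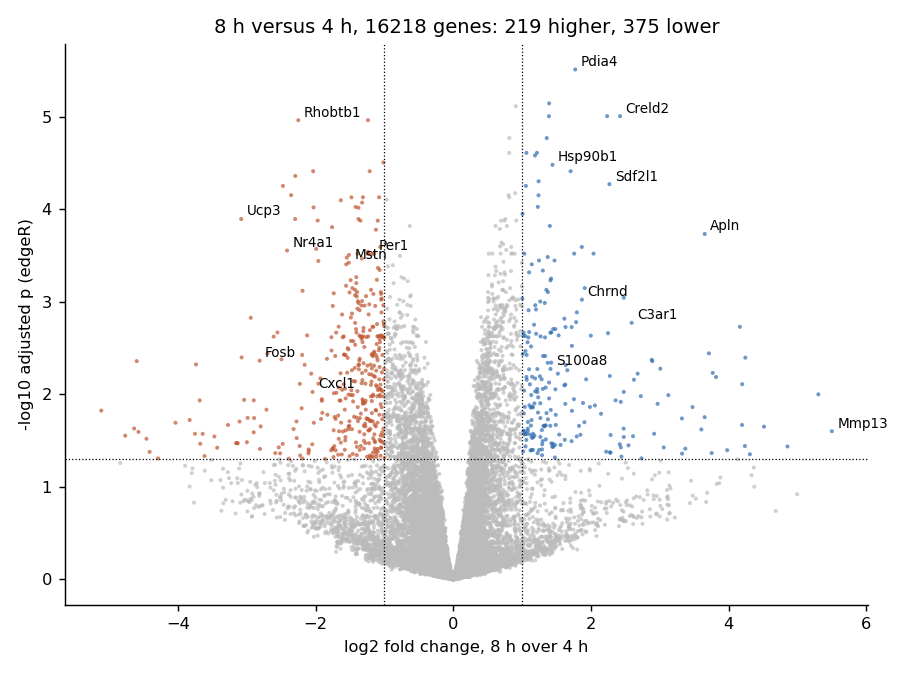
Log2 fold change of 8 h over 4 h (x axis) against -log10 of the edgeR adjusted p (y axis) for the 16218 genes tested, with the 219 genes called higher in blue, the 375 called lower in red and the thresholds dotted. The labelled genes include Pdia4, Creld2 and Sdf2l1, of the ER, on the right, and Rhobtb1, Ucp3 and Nr4a1 on the left.

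Several genes of protein folding in the ER rose. Of 26 tested genes of ER stress and the ATF4 response, 6 were called higher (23.1%) and 0 lower, 12 were higher by the adjusted p alone, and the median log2 fold change was 0.25. The 6 calls held without any one library, and the count was 6 over the 13 matched libraries too. Creld2, an ER-resident protein with a role in disulfide bonds, lay between 4.03 and 10.2 CPM at 4 h (median 6.46) and between 20.1 and 58.8 CPM at 8 h (median 31.4). All 8 h libraries thus stood above every 4 h library, and the log2 fold change was 2.42 ± 0.22 (SE; edgeR adjusted p = 9.85e-06). Sdf2l1, a partner of the ER chaperone Hspa5, went from 2.42 to 8.08 CPM (median 3.18) to 10.7 to 25.9 CPM (median 17.9), a log2 fold change of 2.27 ± 0.25 (adjusted p = 5.35e-05).

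Pdia4, a protein disulfide isomerase, had the smallest adjusted p of the 6, 3.08e-06. Its levels were 14.3 to 22.2 CPM at 4 h (median 17.2) and 40.8 to 75.4 CPM at 8 h (median 58.5), with a log2 fold change of 1.77 ± 0.13. Hspa5, which encodes BiP, the main chaperone of the ER lumen, ranged from 251 to 381 CPM at 4 h (median 338) and from 493 to 1219 CPM at 8 h (median 717), a log2 fold change of 1.25 ± 0.18 (edgeR adjusted p = 0.000358). Hsp90b1, the ER form of HSP90, moved from 115 to 169 CPM (median 147) to 261 to 585 CPM (median 372), with a log2 fold change of 1.44 ± 0.15 (adjusted p = 3.31e-05). Manf, a secreted factor induced by ER stress, moved from 40.9 to 48.3 CPM to 71.8 to 140 CPM, with a log2 fold change of 1.22 ± 0.12 (adjusted p = 2.45e-05). None of these 4 genes had overlapping groups either.

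Further chaperones were higher by less than the fold threshold and again without overlap of the groups. They were Pdia6 (log2 fold change 0.91 ± 0.08), the co-chaperone Dnajb11 (0.82 ± 0.08) and calreticulin, Calr (0.80 ± 0.09), with edgeR adjusted p of 7.68e-06, 1.70e-05 and 7.03e-05. Xbp1, the transcription factor of the IRE1 branch of the response, was higher by 0.38 ± 0.10 (adjusted p = 0.0202). Atf4, Ddit3 and Trib3, genes linked to the PERK branch, gave no such difference. Atf4, the translation-controlled transcription factor of that branch, had a log2 fold change of 0.03 ± 0.17, Ddit3, which encodes CHOP, -0.04 ± 0.30, and the pseudokinase gene Trib3 -0.06 ± 0.24 (adjusted p of 0.921, 0.948 and 0.897). The 10 members with a negative fold change included none that passed the adjusted p.

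The ER stress element, to which ATF6 and NF-Y bind, was searched in the promoters of the reference on both strands as CCAAT, any 9 bases, then CCACG, with no other motif searched. The promoters of 21 of 27457 genes hold it (0.0765%) within 300 bases, 250 before and 50 after the start of the gene. They include 5 of the 24 genes of the ER list that have a promoter there, namely Hspa5, Hsp90b1, Creld2, Xbp1 and Calr. Of the 21 genes, 16 were tested, and 4 were called higher (Creld2, Hsp90b1, Hspa5 and Zfp57, the last chosen after its values were seen), beside 1.35% of all genes. Outside the ER list, 11 were tested and 1 was called higher. By the adjusted p, 8 of the 16 were higher, beside 7.01% of all genes. Beside 2.31% and 6.99% of all genes, 0 were called lower, and 1 was lower by the adjusted p. The last was Pan2, of mRNA deadenylation, which was chosen after its values were seen (-0.60, edgeR adjusted p = 0.0238). The promoters of the 3 called ER list members are shown because their genes were called higher (RefSeq, build GRCr8, written 5′ to 3′ on the strand of the gene). Capitals mark the element, which in Hsp90b1 occurs at 2 places, and a match is a description of the letters alone.
Creld2 (chr7:121789134-121789433, plus strand): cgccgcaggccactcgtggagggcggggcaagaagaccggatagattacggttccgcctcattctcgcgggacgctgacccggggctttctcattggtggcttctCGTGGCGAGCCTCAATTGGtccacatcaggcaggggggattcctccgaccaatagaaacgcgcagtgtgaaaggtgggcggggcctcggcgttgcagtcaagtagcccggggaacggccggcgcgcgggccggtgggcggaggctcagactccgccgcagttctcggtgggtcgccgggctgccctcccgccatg
Hspa5 (chr3:38452766-38453065, plus strand): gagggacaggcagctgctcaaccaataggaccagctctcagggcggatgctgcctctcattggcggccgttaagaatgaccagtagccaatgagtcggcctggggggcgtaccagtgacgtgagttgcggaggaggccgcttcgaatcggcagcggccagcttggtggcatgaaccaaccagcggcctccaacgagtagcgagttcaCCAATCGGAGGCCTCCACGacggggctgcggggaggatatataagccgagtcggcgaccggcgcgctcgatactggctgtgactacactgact
Hsp90b1 (chr7:23012244-23012543, minus strand): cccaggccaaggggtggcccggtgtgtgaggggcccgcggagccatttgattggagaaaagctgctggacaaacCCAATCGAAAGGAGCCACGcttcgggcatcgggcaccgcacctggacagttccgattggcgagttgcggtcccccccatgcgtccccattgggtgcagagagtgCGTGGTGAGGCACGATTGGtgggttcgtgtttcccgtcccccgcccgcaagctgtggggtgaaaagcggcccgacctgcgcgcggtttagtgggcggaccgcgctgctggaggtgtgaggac

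Genes of ribosome biogenesis were higher by less than the fold threshold. None of the 31 tested members passed the fold threshold in either direction, while 17 were higher by the edgeR adjusted p and 0 were lower, beside 7.01% and 6.99% of all genes. In all, 29 members had a positive fold change, beside 46.1% of all genes, and the median was 0.36. The number higher by the adjusted p was 13 to 20 with any one library left out and 19 over the 13 matched libraries, and 12 with scaling by total counts. Nop16, a nucleolar protein, ranged from 27.8 to 32.6 CPM at 4 h (median 29.9) and from 44.8 to 61.6 CPM at 8 h (median 51.4), a log2 fold change of 0.81 ± 0.08 (adjusted p = 2.45e-05). Nop2, an rRNA methyltransferase, was higher by 0.78 ± 0.10 (adjusted p = 0.000151) and Fbl, the fibrillarin gene, by 0.79 ± 0.13 (adjusted p = 0.00111). The groups did not overlap for these 3 genes. Myc, a transcription factor that drives this program, was placed on the list and had a log2 fold change of -0.13 ± 0.28 (adjusted p = 0.805).

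**Figure D3:**
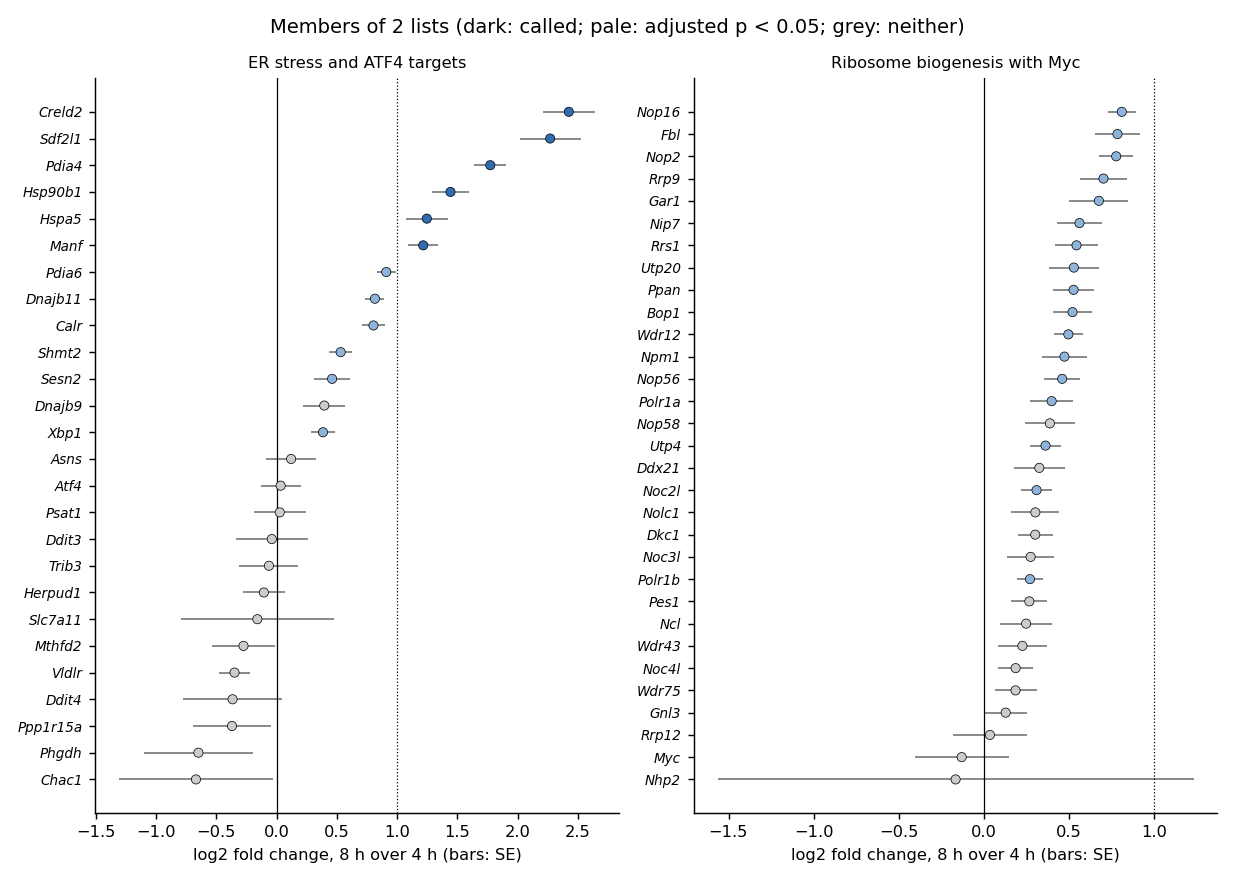
Log2 fold change of 8 h over 4 h (x axis, bars SE) of the 26 tested ER stress and ATF4 genes and the 31 tested ribosome biogenesis genes, in dark blue where called, pale blue where only the adjusted p passed and grey otherwise. In the left panel 6 genes lie past the fold threshold (dotted), from Manf at 1.22 to Creld2 at 2.42, and in the right panel no gene does, with Nop16 the highest at 0.81.

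Cytosolic heat shock proteins gave fewer calls than the ER list, though not a lower median log2 fold change (0.25 in the ER list). Of 25 tested genes, 0 were called, 5 were higher and 1 lower by the adjusted p (3 higher without library 4 h 3, and 2 and 3 lower without 4 h 1 and 8 h 7), with a median log2 fold change of 0.31. By the adjusted p, 7.01% of all genes were higher and 6.99% lower. Hspa8, the constitutive HSP70, was higher by 0.59 ± 0.16 (edgeR adjusted p = 0.0226), and Stip1, which joins HSP70 and HSP90, by 0.62 ± 0.10 (adjusted p = 0.0011). Dnajb4, an HSP40 protein, was the member that was lower, by a log2 fold change of -0.89 ± 0.24 (adjusted p = 0.0213). Of the 30 proteasome subunits tested, 29 had a positive fold change, beside 46.1% of all genes, and the median was 0.15. Only Psma2 passed the adjusted p (0.38 ± 0.12, adjusted p = 0.0382), beside 7.01% of all genes that were higher by it.

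Many immediate early genes fell between the 2 times. Of 27 tested members 10 were called lower (37%) and 0 higher, with a median log2 fold change of -0.79, and 10 were lower over the 13 matched libraries as well. Without library 4 h 4, and with scaling by total counts, the count was 6. The 4 h level differed by depth class. The list summed to 4700 to 7760 CPM in the 3 libraries at 4 h under 25000000 reads and to 9780 to 16200 CPM in the others. At 8 h the sums were 4550 to 4650 CPM under 25000000 reads and 2350 to 9390 CPM over it. The fall was thus larger in the deeper libraries, and the cause was not tested. Nr4a1, an orphan nuclear receptor induced within minutes of many stimuli, lay between 313 and 1105 CPM at 4 h (median 684) and between 39.7 and 221 CPM at 8 h (median 135). Its groups did not overlap, and its log2 fold change was -2.42 ± 0.33 (edgeR adjusted p = 0.000279). Its relative Nr4a3 went from 50.2 to 555 CPM (median 165) to 13.5 to 70.1 CPM (median 29.97), a log2 fold change of -2.70 ± 0.52 (adjusted p = 0.00362).

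The AP-1 subunit gene Fosb ranged from 53.7 to 528 CPM at 4 h (median 142) and from 7.69 to 90.04 CPM at 8 h (median 24.6), with a log2 fold change of -2.81 ± 0.56 (edgeR adjusted p = 0.00433). Fos had 294 to 1083 CPM at 4 h (median 637) and 34.1 to 437 CPM at 8 h (median 120), a log2 fold change of -2.06 ± 0.44 (adjusted p = 0.00598). For Nr4a3, Fosb and Fos, 1 or more 8 h libraries reached into the range of the 4 h group. The antiproliferative gene Btg2 fell by 1.64 ± 0.35 on the log2 scale (adjusted p = 0.00592) and Egr2 by 1.36 ± 0.35 (adjusted p = 0.0181). Klf10, a TGF-beta-inducible zinc finger gene, fell by 1.15 ± 0.25 (adjusted p = 0.00634), to -0.98 and uncalled without library 4 h 4. Zfp36, whose protein speeds the decay of cytokine mRNA, had a log2 fold change of -1.07 ± 0.25 (adjusted p = 0.00876), which came to -0.965 to -0.997 and lost the call without 4 h 3, 4 h 4, 8 h 6 or 8 h 8. Egr1 (-1.57 ± 0.46, adjusted p = 0.0315) lost the call without any one of 8 libraries (4 h 4, 4 h 5, 4 h 6 and 8 h 1 to 8 h 5) and Atf3 (-1.71 ± 0.52, adjusted p = 0.0404) without any one of 10 libraries (4 h 4 to 4 h 7, 8 h 1 to 8 h 5 and 8 h 8), while without 8 h 7 it stood at -2.35 (adjusted p = 0.00198). Jun, by contrast, had a log2 fold change of -0.64 ± 0.25 (adjusted p = 0.107).

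**Figure D4:**
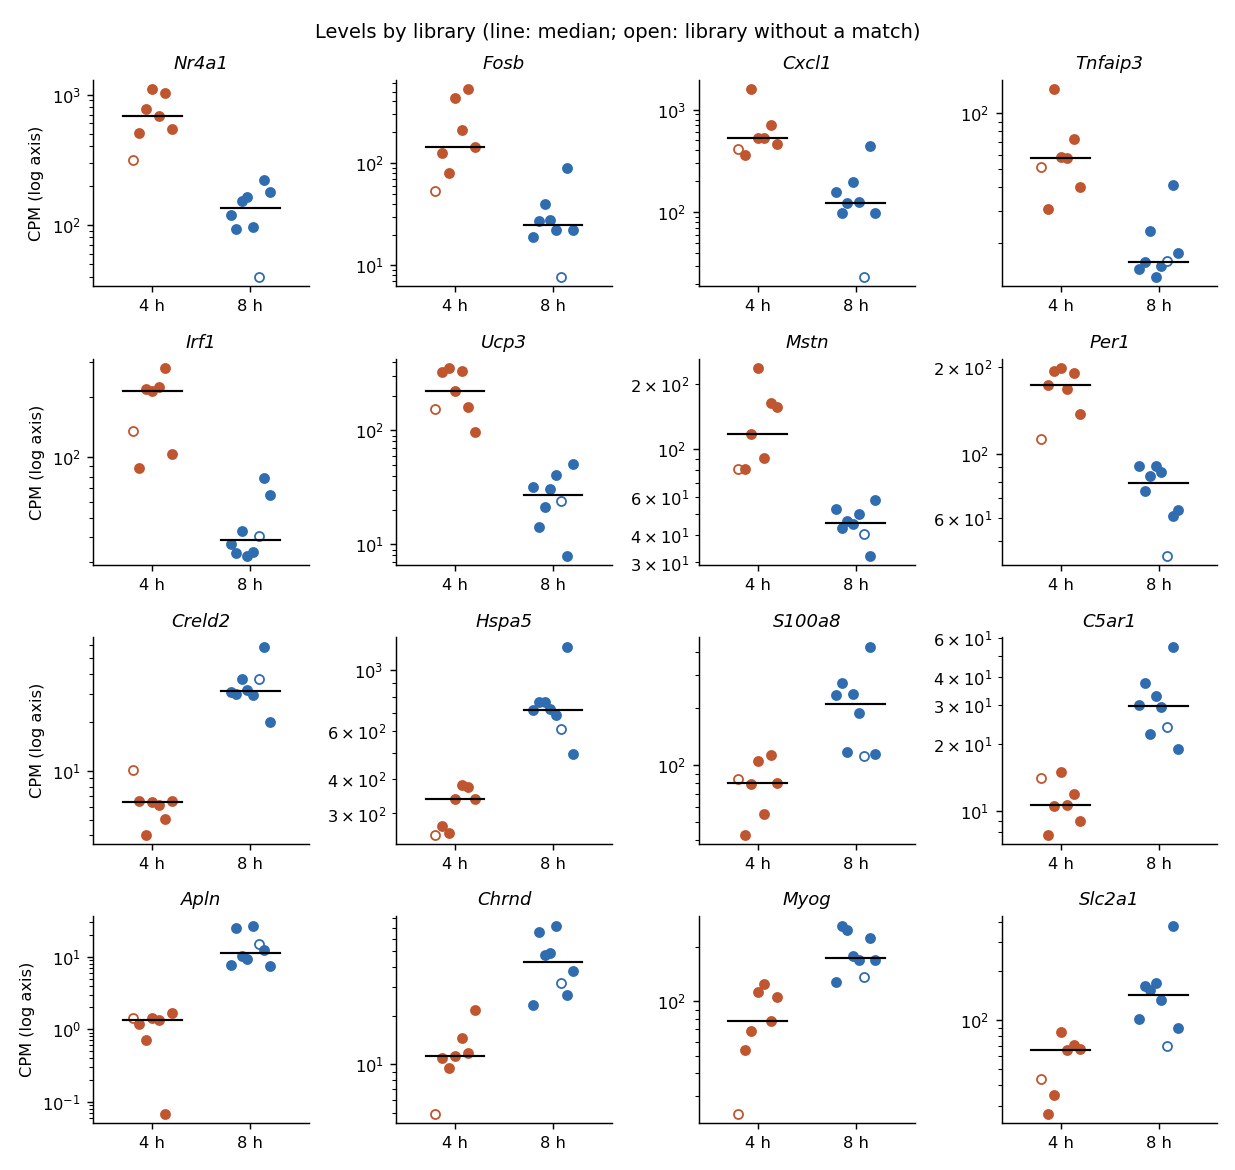
CPM on a log axis of 16 genes in each library at 4 h and 8 h, with a line at the group median and open points for the 2 libraries without a match to published values. The first 8 genes are lower at 8 h and the last 8 higher, and Nr4a1, Mstn, Creld2 and Apln are among those whose groups do not overlap.

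Some feedback genes of NF-kB signaling, the chemokine gene Cxcl1 and the growth factor genes Csf3 and Csf2 fell as well. Of 18 tested NF-kB genes 2 were called lower (11.1%) and 0 higher, with a median log2 fold change of -0.16. Tnfaip3, the A20 gene that restrains NF-kB, ranged from 30.7 to 135 CPM at 4 h (median 57.3) and from 13.2 to 41.0 CPM at 8 h (median 15.9), a log2 fold change of -1.70 ± 0.31 (edgeR adjusted p = 0.00215). Nfkbiz, which encodes a nuclear inhibitor of kB protein, fell by 1.39 ± 0.23 (adjusted p = 0.00118), and Nfkbia, below the fold threshold, had -0.93 ± 0.21 (adjusted p = 0.00827). Among 10 tested chemokines and growth factors that attract or expand neutrophils, 3 were called lower and 1, the receptor gene Csf3r, higher. Cxcl1 lay between 360 and 1579 CPM at 4 h (median 527) and between 23.5 and 443 CPM at 8 h (median 125), so that the groups overlapped, with a log2 fold change of -2.04 ± 0.47 (adjusted p = 0.00943). Csf3, the granulocyte growth factor, fell by 1.96 ± 0.43 (adjusted p = 0.00768; -2.58 without library 8 h 7), and Csf2 by 1.36 ± 0.38 (adjusted p = 0.0254; 0.0649 without library 4 h 3). Cxcl2 and Cxcl3, relatives of Cxcl1, had log2 fold changes of -0.17 ± 0.44 and 0.64 ± 0.35 (adjusted p = 0.841 and 0.248).

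A few interferon-stimulated genes fell. Of 23 tested, 3 were called lower (13%) and 0 higher, 5 were lower by the adjusted p, and the median was -0.47. A positive fold change was found for 2 of them, beside 46.1% of all genes tested. Irf1, a transcription factor of the interferon response, carried the firmest of these calls. It ranged from 88.2 to 279 CPM at 4 h (median 214) and from 32.2 to 78.5 CPM at 8 h (median 38.7) without overlap, a log2 fold change of -1.99 ± 0.27 (edgeR adjusted p = 0.000268). The calls of Ifi44 (-1.03 ± 0.19, adjusted p = 0.00233) and Gbp4 (-1.74 ± 0.56, adjusted p = 0.0477) were absent over the 13 matched libraries, where the list count was 1. That count was also 1 with scaling by total counts and without 4 h 1, 4 h 2, 4 h 6, 8 h 3, 8 h 4 or 8 h 5, and Gbp4 reached 5.04 CPM in 4 h 1, against a 4 h median of 0.753. Without that library its log2 fold change was -0.83 (adjusted p = 0.171), and with the depth class as a term of the fit Gbp4 stood at -1.45 and was not called (adjusted p = 0.115). Cxcl10, an interferon-induced chemokine for T cells, fell from 17.4 to 79.3 CPM (median 25.8) to 3.49 to 17.03 CPM (median 6.69), a log2 fold change of -2.12 ± 0.38 (adjusted p = 0.00231).

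The IL-6 family showed few firm differences. Of 16 tested genes 2 were called lower and 0 higher. Il6 itself lay between 96.0 and 465 CPM at 4 h (median 276) and between 14.3 and 261 CPM at 8 h (median 87.7). Its log2 fold change was -1.40 ± 0.44 (edgeR adjusted p = 0.0454), and it lost the call without any one of 11 libraries (4 h 3 to 4 h 7, 8 h 1 to 8 h 5 and 8 h 8). Cish, a feedback inhibitor of STAT5, had -1.01 ± 0.26 (adjusted p = 0.0168) and lost its call without any one of 8 libraries, 4 h 3 to 4 h 7, 8 h 5, 8 h 6 or 8 h 8. The list count was thus 0 with scaling by total counts and 0 or 1 without any library except 4 h 1, 4 h 2 and 8 h 7. With the depth class as a term both lost the call, Il6 at -1.41 (adjusted p = 0.0519) and Cish at -0.99 (adjusted p = 0.0228). Socs3, another feedback inhibitor, had a log2 fold change of -0.50 ± 0.26 (adjusted p = 0.223).

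Some markers of neutrophils were higher at 8 h. Of 20 tested, 5 were called higher (25%) and 0 lower, with a median log2 fold change of 0.65, and 9 were called higher over the 13 matched libraries, where the median was 0.93. The count was 8 without library 4 h 1. The fold change was positive for 14 members and negative for 6, and DESeq2 called 1 member lower. In bulk tissue more cells of a type and more RNA per cell cannot be told apart. S100a8, a calcium-binding alarmin of neutrophils, ranged from 42.7 to 113 CPM at 4 h (median 80.3) and from 112 to 425 CPM at 8 h (median 212), the groups touching at the edge, with a log2 fold change of 1.41 ± 0.30 (edgeR adjusted p = 0.00532). Its partner S100a9 was higher by 1.22 ± 0.29 (adjusted p = 0.00944) and Pglyrp1, a peptidoglycan-binding granule protein, by 1.38 ± 0.36 (adjusted p = 0.0186). Csf3r, the receptor for the granulocyte growth factor, rose from 26.3 to 69.0 CPM (median 49.7) to 76.1 to 247 CPM (median 106) without overlap, a log2 fold change of 1.42 ± 0.26 (adjusted p = 0.00215). Lcn2, which encodes an iron-chelator-binding granule protein, had 1.08 ± 0.29 (adjusted p = 0.0199) and fell under the fold threshold, at 0.921 to 0.998, without 4 h 4, 4 h 5 or 8 h 7. Summed over the list, the level was 334 to 994 CPM at 4 h and 732 to 2510 CPM at 8 h.

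A few monocyte and macrophage markers were higher as well, to an extent that turned on library 4 h 1. Of 19 tested, 2 were called higher (10.5%) and 0 lower, 4 over the 13 matched libraries, 7 without 4 h 1 and 1 without 8 h 7. The fold change was positive for 15 members and negative for 4. The summed level was 1890 CPM in 4 h 1, 543 to 757 CPM in the other 4 h libraries and 719 to 1980 CPM at 8 h. Msr1, a scavenger receptor, ranged from 3.12 to 11.2 CPM at 4 h (median 4.45) and from 9.12 to 19.1 CPM at 8 h (median 15.2), a log2 fold change of 1.48 ± 0.27 (edgeR adjusted p = 0.00197). Fcgr1a, an Fc receptor, was higher by 1.22 ± 0.26 (adjusted p = 0.00534), and by 0.99 and uncalled without 8 h 7. Cd68, a lysosomal protein of macrophages, had 0.73 ± 0.38 (adjusted p = 0.22) over all libraries and 1.27 over the matched ones (adjusted p = 0.000206). The lysozyme gene Lyz2 had 0.90 ± 0.27 (adjusted p = 0.0338) and 1.25 (adjusted p = 0.00148). In the other direction, the list member Adgre1 had -0.63 over the matched libraries (edgeR adjusted p = 0.0673).

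Chemokines and receptors of monocytes and lymphocytes gave 2 genes higher and 1 lower of 18 tested, and 4 higher and 1 lower over the matched libraries. The count of higher genes was 5 without 4 h 1, 1 without any other library except 4 h 4 and 8 h 1, and 0 with scaling by total counts. Ccl12, a monocyte chemokine, was higher by 2.28 ± 0.71 (adjusted p = 0.0424), by 4.14 over the matched libraries (adjusted p = 2.66e-05) and by 4.20 without 4 h 1, but lost the call without any other library except 8 h 1. Ccl2, the main monocyte attractant, ranged from 193 to 844 CPM at 4 h and from 140 to 604 CPM at 8 h and was not called (-0.66 ± 0.30, adjusted p = 0.162). The interleukin-1 genes gave 0 calls of 17 tested over all libraries, 4 higher over the matched ones (Pycard, Il33, Il18 and Il1r2, at 1.28, 1.06, 1.02 and 1.05) and 3 higher without 4 h 1. The cytokine gene Il1b had a log2 fold change of -0.22 ± 0.44 (adjusted p = 0.792).

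Complement receptors rose. Of 20 tested complement genes 3 were called higher (15%) and 0 lower. C5ar1, the receptor for the C5a fragment, lay between 7.81 and 14.9 CPM at 4 h (median 10.6) and between 19.1 and 54.9 CPM at 8 h (median 29.7), without overlap, with a log2 fold change of 1.47 ± 0.21 (edgeR adjusted p = 0.000358). C3ar1, the receptor for C3a, moved from 0.0318 to 0.671 CPM (median 0.291) to 1.33 to 3.73 CPM (median 2.14), a log2 fold change of 2.59 ± 0.46 (adjusted p = 0.00169). Factor B, Cfb, had 1.23 ± 0.38 (adjusted p = 0.0433) and lost the call without any one of 11 libraries, all but 4 h 1, 4 h 3, 8 h 5 and 8 h 8. Cd55, which limits complement on cell surfaces, was lower in every 8 h library (22.7 to 30.95 CPM) than in any 4 h library (38.1 to 63.8 CPM), just under the fold threshold (-0.97 ± 0.11, adjusted p = 7.87e-05). Fcnb, a ficolin of the lectin pathway, was named for the size of its change and rose by 1.76 ± 0.24 (adjusted p = 0.000301), from 6.93 to 16.8 CPM to 23.1 to 58.1 CPM.

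Several genes of fatty acid use fell. Of 20 tested, 6 were called lower (30%) and 0 higher, 6 over the matched libraries and 5 or 6 without any one library, and the median log2 fold change was -0.35. Ucp3, a mitochondrial carrier of muscle, had the largest fall among the genes named by size. It lay between 96.9 and 353 CPM at 4 h (median 222) and between 7.94 and 51.2 CPM at 8 h (median 27.3), with no overlap and a log2 fold change of -3.08 ± 0.37 (edgeR adjusted p = 0.000127). Cpt1a, which admits fatty acids to mitochondria, fell from 13.2 to 26.7 CPM (median 19.1) to 7.44 to 11.1 CPM (median 9.13), again with no overlap, by 1.12 ± 0.15 (adjusted p = 0.000166). Pdk4, which restrains the entry of pyruvate into oxidation, ranged from 568 to 1709 CPM at 4 h (median 1298) and from 131 to 622 CPM at 8 h (median 371), a log2 fold change of -1.71 ± 0.34 (adjusted p = 0.00386).

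The coactivator gene Ppargc1a, a regulator of mitochondrial content, fell by 1.49 ± 0.35 (edgeR adjusted p = 0.0102), and Angptl4, an inhibitor of lipoprotein lipase, by 1.67 ± 0.29 (adjusted p = 0.00186). Ppara, a nuclear receptor for fatty acids, had -1.07 ± 0.25 (adjusted p = 0.0101) and fell just short of the fold threshold without 4 h 5, 8 h 4, 8 h 5 or 8 h 7. Ehhadh, a peroxisomal enzyme of fatty acid oxidation named for the size of its change, was lower by -1.97 ± 0.25 (adjusted p = 0.000132). The nuclear-encoded genes of oxidative phosphorylation showed no such fall, with 0 of 23 called or past the adjusted p and a median of -0.01, which turned positive with scaling by total counts. Of 24 genes of glycolysis and glucose transport 1 was called, the glucose transporter gene Slc2a1, which was higher (1.48 ± 0.34, adjusted p = 0.00884), and the enolase gene Eno1 was higher by 0.71 ± 0.12 without overlap (adjusted p = 0.00108). In the other direction, 17 of the 24 had a negative fold change (median of all -0.16) and 0 were lower by the adjusted p, against 4 over the matched libraries, 6 without 4 h 1 and 2 without 8 h 8.

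Genes of growth and atrophy control fell in part. Of 19 tested atrophy genes 4 were called lower (21.1%) and 0 higher, 5 over the matched libraries, and 2 without 4 h 3 or with scaling by total counts. Mstn, the myostatin gene, a negative regulator of muscle mass, lay between 80.7 and 237 CPM at 4 h (median 118) and between 32.2 and 58.4 CPM at 8 h (median 45.8), without overlap, a log2 fold change of -1.52 ± 0.22 (edgeR adjusted p = 0.000378). The transcription factor gene Foxo3 fell by 1.29 ± 0.25 (adjusted p = 0.00308). Foxo1 (-1.004 ± 0.21, adjusted p = 0.00531) lay at the fold threshold and lost the call without any one of 9 libraries (4 h 3 to 4 h 6, 8 h 2, 8 h 4 and 8 h 6 to 8 h 8). Sesn1, a p53 target that restrains mTORC1, fell by 1.09 ± 0.25 (adjusted p = 0.00901) and was at -0.98, uncalled, without 4 h 3. The ubiquitin ligase genes of atrophy were not called, Trim63 at -1.07 ± 0.42 (adjusted p = 0.105) and Fbxo32 at -0.12 ± 0.43 (adjusted p = 0.895). In the signaling list of activin, BMP and TGF-beta, the corepressor gene Skil fell by 1.75 ± 0.29 (adjusted p = 0.00111) and Nog, the BMP antagonist noggin, rose by 1.63 ± 0.29 (adjusted p = 0.00187).

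Several clock genes were lower at 8 h. Of 18 tested, 3 were called lower (16.7%), 10 were lower by the adjusted p and 0 were higher, with a median log2 fold change of -0.70, and 5 were called without 4 h 1. Per1, a repressor of the clock, lay between 112 and 198 CPM at 4 h (median 173) and between 44.3 and 90.6 CPM at 8 h (median 78.9), without overlap, a log2 fold change of -1.17 ± 0.16 (edgeR adjusted p = 0.000302). Bhlhe41 fell by 2.19 ± 0.34 (adjusted p = 0.00076) and Ciart, a repressor too, by 1.59 ± 0.35 (adjusted p = 0.00777). The nuclear receptor genes Nr1d1 and Nr1d2 were lower by less, -0.82 ± 0.21 and -0.70 ± 0.14 (adjusted p = 0.017 and 0.00385). Arntl and Clock, the activators, had log2 fold changes of -0.06 ± 0.22 and 0.11 ± 0.10 (adjusted p = 0.896 and 0.529). The hour of day at which each rat was injured or killed is not given in the sources used here, so that time after injury and time of day cannot be told apart.

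Genes that respond to loss of nerve input moved in both directions. Of 13 tested, 3 were called higher (23.1%) and 1 lower. Chrnd, the delta subunit of the muscle acetylcholine receptor, ranged from 4.95 to 21.6 CPM at 4 h (median 11.3) and from 23.3 to 72.2 CPM at 8 h (median 42.7) without overlap, a log2 fold change of 1.87 ± 0.30 (edgeR adjusted p = 0.000948). Myog, the myogenic factor that activates receptor genes, went from 24.0 to 125 CPM (median 78.3) to 128 to 262 CPM (median 174), a log2 fold change of 1.22 ± 0.28 (adjusted p = 0.00876). The other receptor subunits differed less. Chrna1 had 0.07 ± 0.25 and Chrnb1 0.20 ± 0.19 (adjusted p = 0.895 and 0.541), and Chrne, of the adult receptor, was lower by -0.92 ± 0.19 (adjusted p = 0.00432). Hdac9, a repressor controlled by nerve activity, had -1.36 ± 0.42 (adjusted p = 0.04) and lost the call without any one of 9 libraries (4 h 3 to 4 h 7 and 8 h 2 to 8 h 5).

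Among 21 tested satellite cell and myogenic genes, 1 was called higher, Myog, and 1 lower, Met, the receptor for hepatocyte growth factor (-1.31 ± 0.24, edgeR adjusted p = 0.00208). Of all genes, 1.35% were called higher and 2.31% lower. By the adjusted p, 2 members were higher and 6 lower, beside 7.01% and 6.99% of all genes. The number lower was 3 to 6 with any one library left out. Pax7, of satellite cells, and Myod1 had log2 fold changes of -0.12 ± 0.35 and 0.20 ± 0.39 (adjusted p = 0.868 and 0.791). None of 25 sarcomere genes was called, although all 25 had a negative fold change (22 with scaling by total counts), with a median of -0.28 beside -0.05 for all genes. Of all genes tested, 46.1% had a positive fold change. Neb, the nebulin gene, was lower by -0.74 ± 0.19 and Myom1 by -0.79 ± 0.20 (adjusted p = 0.0187 and 0.017). These 2 were the members lower by the adjusted p, against 5 over the matched libraries.

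Matrix and vessel genes gave isolated changes. Timp3, an inhibitor of metalloproteinases, fell from 144 to 261 CPM (median 212) to 48.0 to 118 CPM (median 88.6) without overlap, a log2 fold change of -1.24 ± 0.17 (edgeR adjusted p = 0.000288). Mmp13, a collagenase, was higher by 5.50 ± 1.51 (adjusted p = 0.0251), with 34.2 CPM in 8 h 2 against a median of 0.588, and stood at 2.20 and uncalled without that library (adjusted p = 0.0613). It also lost the call without 4 h 3, 4 h 4 or 4 h 5 and stood at 6.22 without 4 h 6. Of 22 adhesion and angiogenic genes 2 were called higher and 2 lower, with 4 lower without 8 h 7. Apln, which encodes the angiogenic peptide apelin, lay between 0.0685 and 1.69 CPM at 4 h (median 1.34) and between 7.40 and 26.8 CPM at 8 h (median 11.3). This was a log2 fold change of 3.65 ± 0.47 (adjusted p = 0.000185). Angpt1, a ligand that stabilizes vessels, fell by 1.35 ± 0.25 (adjusted p = 0.00237), and Vegfa had -0.46 ± 0.22 (adjusted p = 0.171). Esm1, an endothelial proteoglycan, was higher by 1.18 ± 0.34 (adjusted p = 0.028) and lost the call without 4 h 2, 4 h 3, 4 h 5 or 4 h 6. Plau, the urokinase gene, fell by 1.11 ± 0.22 (adjusted p = 0.004; -0.99 and uncalled without 4 h 3). F3, the tissue factor gene that starts coagulation, had -1.03 ± 0.21 (adjusted p = 0.00375) and lost the call without 4 h 3, 4 h 4, 4 h 6, 8 h 6, 8 h 7 or 8 h 8. No gene of that list of 18 was called higher.

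Other p53-linked genes split in direction. Gadd45b, a stress-induced growth arrest gene, fell by 1.47 ± 0.25 (edgeR adjusted p = 0.00134) without overlap of the groups. Bax, which opens the mitochondrial membrane in apoptosis, rose from 9.35 to 18.9 CPM to 20.0 to 30.1 CPM, a log2 fold change of 1.03 ± 0.14 (adjusted p = 0.000302) that came to 0.973 to 0.999, uncalled, without 4 h 6, 8 h 2 or 8 h 7. The mitosis and DNA replication genes gave 1 lower call in 28 tested (3.57%, beside 2.31% of all genes). It was Bub1 (-1.07 ± 0.20, adjusted p = 0.00273), at -0.96 and uncalled without 8 h 7.

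The other lists held few calls, where 1.35% of all genes were called higher and 2.31% lower. Of 21 collagen and matrix genes 1 was called higher, Col8a1, a short-chain collagen of vessel walls (1.72 ± 0.33, edgeR adjusted p = 0.003). Of 14 dual specificity phosphatases and ERK feedback genes 1 was called lower, Dusp14 (-1.62 ± 0.28, adjusted p = 0.00137), with no overlap of the groups. Among 17 genes of prostaglandin and leukotriene synthesis 0 were called, and Ptges3 was higher by 0.59 ± 0.11 without overlap (adjusted p = 0.00197), while Ptgs2, the inducible cyclooxygenase, had -0.96 ± 0.46 (adjusted p = 0.187). The pattern receptor, metallothionein, strain-response, red cell, adipocyte, keratinocyte, endothelial and fibroblast lists gave 0 calls, as did the T cell, B cell and lymph node stroma lists. Over the 13 matched libraries 3 genes of prostaglandin and leukotriene synthesis were called higher, Ptgs1, Tbxas1 and Alox5ap, and the lymph node list gave 1 call, Ccl19, a chemokine of lymphoid stroma (adjusted p = 0.0433 in that fit). The pattern receptor list then gave Tlr4 as higher, the fibroblast list Ly6al as higher and the strain-response list Otud1 as lower. Hyal1, a hyaluronidase gene (-1.04 ± 0.22, adjusted p = 0.00579), and Clcn1, the muscle chloride channel gene (-1.14 ± 0.35, adjusted p = 0.0385), were the single calls of the hyaluronan and calcium handling lists. Hyal1 lost its call without 4 h 4, 4 h 5, 4 h 6 or 8 h 4 and with the depth class as a term (-0.98, adjusted p = 0.00521), while its list gave 3 calls without 4 h 2 or 8 h 7 and 2 without 4 h 1. Clcn1 lost its call without any library except 4 h 1 and 8 h 8.

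Outside the lists, the rule by size named 12 genes in each direction among called genes with a mean of at least 2 CPM and no overlap of the groups (49 higher and 67 lower qualified). That mean runs over both groups, so a gene could pass it through its higher group alone. Exoc3l2, Sptbn4 and Apln, the last given above with the vessel genes, did so, with under 2 CPM in every 4 h library. Exoc3l2, of endothelial vesicle traffic, moved from 0.466 to 0.923 CPM to 2.80 to 5.03 CPM, a log2 fold change of 2.24 ± 0.20 (edgeR adjusted p = 9.85e-06). Ibsp, the bone sialoprotein gene, was higher by 5.30 ± 1.23 (adjusted p = 0.01), with 24.6 CPM in 8 h 2 against a median of 0.747, by 3.10 without that library and by 5.96 without 4 h 6. Ibsp met the mean of 2 CPM only through 8 h 2, and was under 2 CPM in every other library. Also named as higher were Sptbn4 (1.999), Arhgap22 (1.87) and Scimp (1.79), the last an adaptor of antigen-presenting cells.

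Of the genes named as lower, Rhobtb1 had the smallest adjusted p among them, 1.09e-05. It ranged from 40.7 to 127 CPM at 4 h (median 97.3) and from 15.6 to 27.8 CPM at 8 h (median 18.2), a log2 fold change of -2.25 ± 0.21. Genes of 2 steroid receptors fell, Nr3c2, the mineralocorticoid receptor, from 4.31 to 12.1 CPM to 1.01 to 3.16 CPM (-2.47 ± 0.28, edgeR adjusted p = 5.59e-05), and Esr1, the estrogen receptor alpha, from 5.58 to 12.6 CPM to 1.55 to 3.40 CPM (-2.04 ± 0.22, adjusted p = 3.88e-05). Erfe, which encodes the hepcidin-suppressing hormone erythroferrone, moved from 5.31 to 10.7 CPM to 0.767 to 3.20 CPM (-2.30 ± 0.25, adjusted p = 4.36e-05). Pde4d, a cAMP phosphodiesterase, moved from 88.6 to 185 CPM to 21.8 to 60.2 CPM (-2.03 ± 0.24, adjusted p = 9.54e-05). Angptl1 (-2.36 ± 0.27) and Pkhd1l1 (-1.76 ± 0.23) were named as well.

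**Figure D5:**
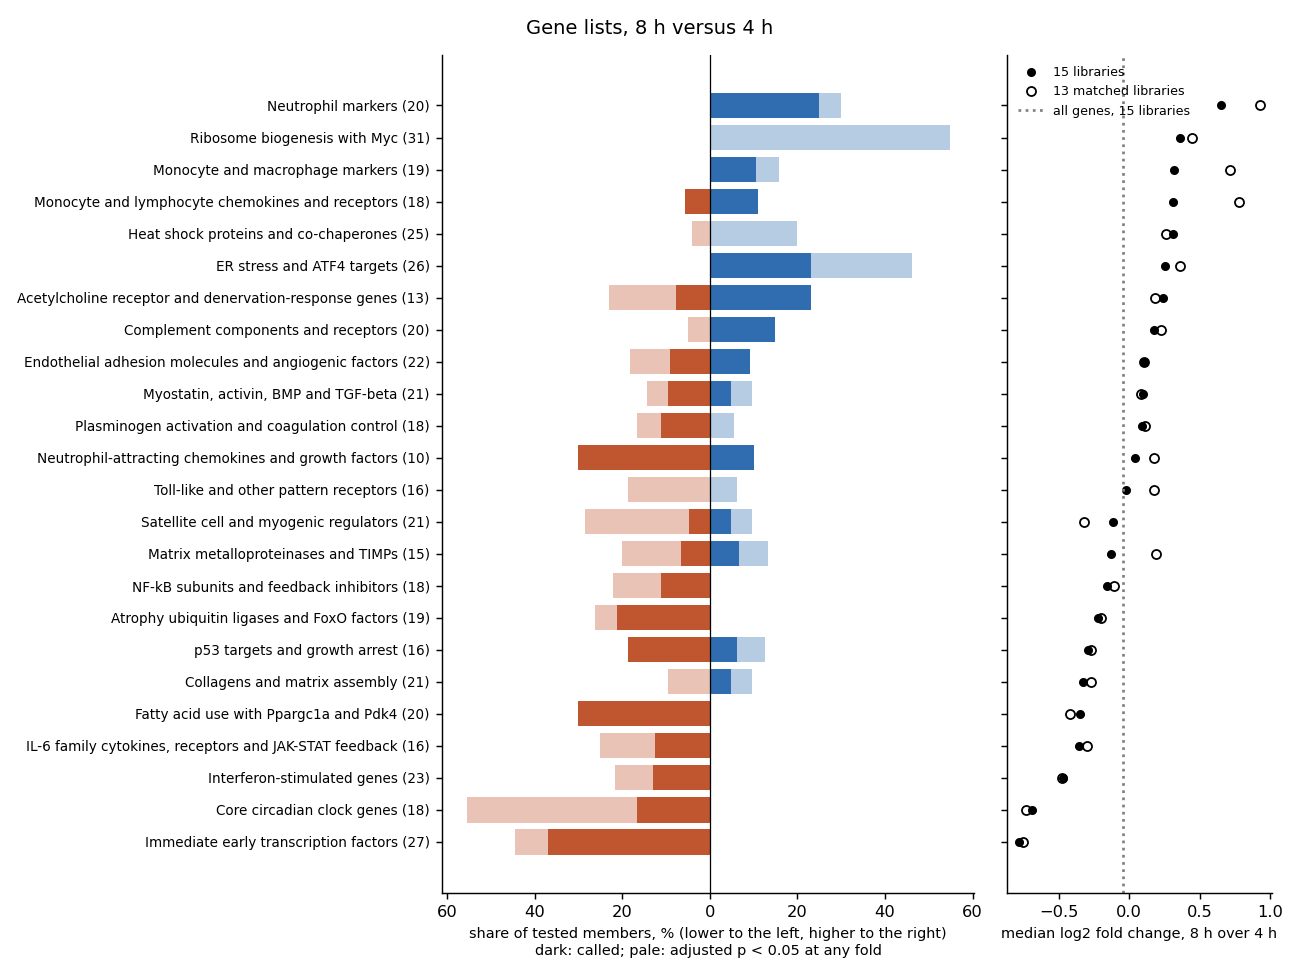
Left, the share of tested members of 24 gene lists (number tested in brackets) that were higher (right of zero, blue) or lower (left, red), dark where called and pale where only the adjusted p passed. Lists with few or no members called or past the adjusted p are left out. Right, the median log2 fold change over 15 libraries (filled) and 13 matched libraries (open), with all genes dotted at -0.05; the neutrophil list has the highest median and the immediate early list the lowest.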

How the data were processed

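RNA-seq of contused rat muscle was compared between 7 libraries at 4 h and 8 libraries at 8 h. The deposited table holds raw counts, which the authors made by trimming with Trimmomatic, aligning to rn6 with HISAT2 2.1.0 and counting with HTSeq 0.6.1, reverse stranded, per the labels and the study's methods. They are not normalized, and the other 45 columns were not used. The members of the comparison and the gene lists were chosen with earlier results of these data known. Groups came from column position, checked against the published normalized values.

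Genes with a total of at least 5 reads were tested with the quasi-likelihood test of edgeR 4.0.16 (TMM scaling, robust fit, group as the only term) in R 4.3.3, with Benjamini-Hochberg adjustment over 16218 genes. Calls needed an adjusted p under 0.05 and a log2 fold change beyond 1. The SE was the log2 fold change divided by the root of F. Left out were 4444 genes, 3408 of them with no read. With these depths, genes of few reads carry larger errors. Alternatives were DESeq2 1.42.0, limma 3.58.1 (voom), other scalings, filters and thresholds, the 13 matched libraries and leaving out each library. Those by depth class, those joined with matched libraries and the replicate block were chosen after seeing the data. Named genes were the 12 largest changes per direction among called genes with a mean of at least 2 CPM and no overlap, up to 4 called members per list and direction by smallest p, other list members with their values, and Acta1, Ckm and Hbb. The fit was tested on simulated data. Some listed genes were not analysed here, and 2 genes that the rule names are not reported here. Promoters came from the RefSeq table of GRCr8.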

Additional observations from a re-analysis of the deposited data

Results flagged for a closer look

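In each group the highest and lowest library of 80 genes named by size, list or as a check was set against the others on log2(CPM + 0.5) with Dixon's criterion. A library stood apart in 15 of 160 gene and group combinations, where chance gives about 1 in 20. Library 4 h 1 accounted for 6 of them, 8 h 7 for 3, 8 h 2 and 8 h 6 for 2 each, and 8 h 5 and 8 h 8 for 1 each.

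Library 4 h 1 was the lowest of its group for Acta1 (26300 CPM), Clcn1 (34.9 CPM) and Erfe (5.31 CPM). It was the highest for Ccl12 (1.72 CPM), Gbp4 (5.04 CPM) and Sdf2l1 (8.08 CPM). Library 8 h 7 was the highest of its group for Angptl4 (58.6 CPM) and Sptbn4 (7.94 CPM) and the lowest for Nog (6.42 CPM). Library 8 h 2 was the highest for Ibsp (24.6 CPM) and Mmp13 (34.2 CPM), against medians of 0.747 and 0.588 CPM. Library 8 h 6 was the lowest for Angptl1 (0.952 CPM) and Pkhd1l1 (0.846 CPM), 8 h 5 the lowest for Cfb (15.9 CPM), and 8 h 8 the highest for Bhlhe41 (11.6 CPM).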

How the results depend on the processing

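Of 2541 comparisons of the 82 named genes with their values under other settings, 2238 kept direction and side of the threshold, 303 lost the call and 0 reversed, and 60 of the 79 called genes kept the call without any one library. The counts of called genes moved by over 1.5 times in these cases. By adjusted p alone there were 2271 calls, 1137 higher and 1134 lower. A test against a 1.5-fold change gave 139 calls, 57 of them higher and 82 lower. Total count scaling gave 245 lower. The matched libraries gave 413 higher, 400 with a depth term, and 442 with DESeq2 (920 in all). Libraries over 25000000 reads gave 233 lower, and those under it 83 calls, 67 higher and 16 lower. With 1 library left out the calls ran from 471 (without 4 h 3) to 923 (without 4 h 1), the higher ones from 165 to 467 for the same libraries, and the lower ones from 304 to 456. In the fit under 25000000 reads 80.7% of the calls were higher, against 36.9% in the main fit, and 62 of the 82 named genes lost the call. The depth class fits also held fewer libraries. The cause of these shifts was not tested. Scaling by totals moved the median log2 fold change of all genes from -0.05 to 0.04. The names of the published libraries share 4 numbers between the groups, over 8 matched libraries, and a fit on these with the number as a replicate block, chosen after seeing the data, gave 703 calls, 332 of them higher and 371 lower, against 653, 315 and 338 for the same libraries without the block. Deviations of same-numbered libraries from their group means correlated at 0.0104 to 0.259 over 12072 genes, and 2 of the 4 libraries at 4 h correlated best with their own number. Same-numbered libraries also shared a depth class, numbers 2 and 3 under 25000000 reads and numbers 4 and 6 over it. Each library came from a different rat, so the number was not taken as a pairing of animals. Whether it marks a batch was not tested.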
